A study of Mus musculus with 4 samples.

Results

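Of the 30763 peaks listed for the RNA helicase eIF4A3 in mouse embryonic stem cells, 3605 (11.7%) stood in unbroken runs in which 3 or more peaks followed each other on the same strand with no nucleotide between them. These runs numbered 1067. They were found by sorting the peaks by chromosome, strand and start and joining a peak to its predecessor where its start was that peak's end plus 1. A further 7648 peaks (24.9%) formed 3824 pairs of the same kind, which lie just outside the choice, and 19510 peaks (63.4%) abutted no other. The peaks come from enhanced crosslinking and immunoprecipitation (eCLIP), in which ultraviolet light fixes proteins to the RNA they touch and the RNA pulled down with an antibody is sequenced together with input RNA taken with no antibody. The cells were the mouse line J1, of strain 129S4/SvJae, kept feeder-free with serum and leukemia inhibitory factor (LIF) and irradiated with 400 mJ/cm2 at 254 nm. The 2 groups were input RNA with no antibody and RNA pulled down with an antibody to eIF4A3, each with 2 biological replicates, and the labels name no genetic change in either.

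eIF4A3 is a DEAD-box helicase that closes on RNA like a clamp and does not read its sequence. It is the core of the exon junction complex, which splicing leaves on messenger RNA just upstream of the place where exons were joined, and which later takes part in RNA export, translation and the decay of faulty messages. The complex forms with the proteins MAGOH and RBM8A, which lock the clamp, and CASC3.

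All values are the authors' deposited values for each peak. They comprise a log2 fold change, whose numerator and denominator no source used here states, and a −log10 p-value. There is 1 list for the whole series and none per library, so no spread between replicates can be given and the read depth behind a peak is unknown. The runs were chosen from peak calls of the same contrast that gave the fold changes and p-values, so every comparison below is a description with no test. The list begins at a log2 fold change of 2.00 and a −log10 p of 5.01, and a run holds no peak below either limit. Positions are on mm9 as printed in the list, which does not state whether they count from 0 or 1. Gene models on that build were not used here, and runs are therefore named by position. The 5′ and 3′ ends follow the listed strand.

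Runs were short, and most had the smallest number of peaks that the choice allows. Of the 1067 runs, 774 held 3 peaks, 216 held 4, 60 held 5, 8 held 6, 5 held 7, 3 held 8 and 1 held 12. The median run covered 84 nt, with quartiles of 64 and 116.5 nt, a minimum of 18 nt and a maximum of 401 nt, and 39 runs reached 200 nt. The median pair covered 53 nt. Runs of 3 had a median span of 78 nt, runs of 4 of 102.5 nt and runs of 5 of 112 nt. Abutment stood apart from near neighbourhood in the list: 6362 neighbours had no nucleotide between them, whereas 25 were apart by 1 nt, 38 by 2 nt and 232 by 1 to 5 nt. Bridging such gaps of 1 to 5 nt added 67 runs and lengthened 21.

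Peaks of longer runs had higher −log10 p and were narrower. The median −log10 p was 8.88 for peaks that abutted no other, 12.6 in pairs, 16.7 in runs of 3, 21.1 in runs of 4, 27.3 in runs of 5 and 38.2 in the 17 runs of 6 or more. Median width fell over the same classes from 37 to 27, 25, 24, 20.5 and 20 nt. The log2 fold change moved little, with medians of 2.68, 2.75, 2.80, 2.84, 2.94 and 2.74, and the quartiles of all 6 classes overlapped. Of the peaks in runs, 1353 (37.5%) reached 8-fold, a log2 fold change of 3, beside 32.3% of the whole list, 33.3% of peaks in pairs and 30.9% of peaks that abutted no other.

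**Figure D1:**
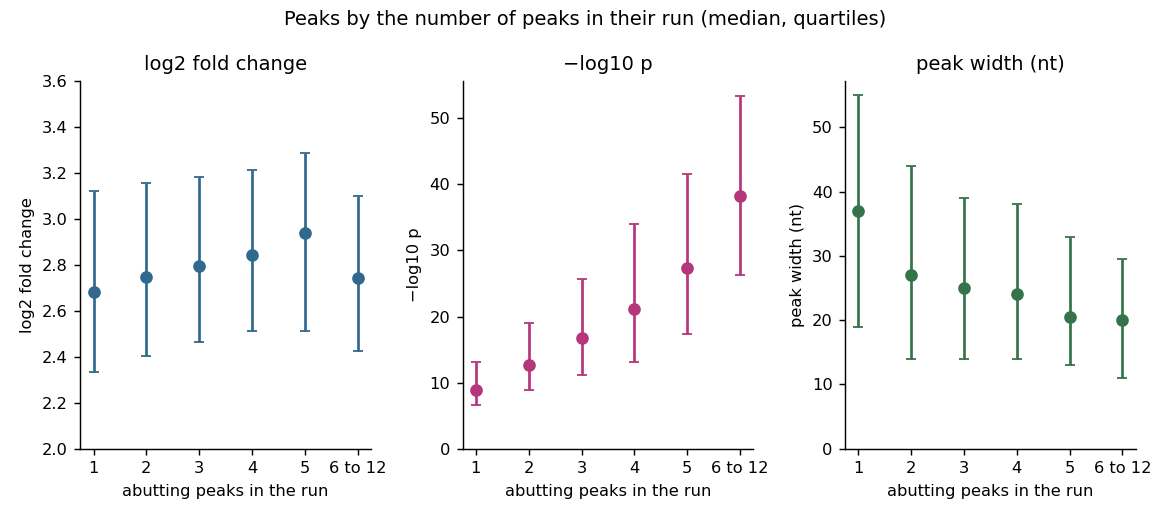
Median log2 fold change, −log10 p and width in nt (points, with quartiles as bars) of peaks by the number of abutting peaks in their run, where 1 stands for a peak that abuts no other. The median −log10 p goes from 8.88 to 38.2 and the median width from 37 to 20 nt, while the fold change medians stay between 2.68 and 2.94.

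Peaks with the highest −log10 p stood in runs more often than the 11.7% of all peaks, whereas the share in runs among peaks with the highest fold change lay nearer to it or below. The highest −log10 p in the list, 400, was given to 89 peaks, of which 53 (59.6%) stood in 30 runs, 20 in pairs and 16 alone. Peaks that share this value are not ranked by it. Among the runs described singly below, no −log10 p lay between 86.5 and 400. No source used here states how the value of 400 was assigned, so the size of a step to or from it is unknown. Of the 604 peaks with a −log10 p of at least 50, 302 (50.0%) stood in runs. Of peaks with a high fold change, 107 of the 1122 peaks whose log2 fold change reached 4 (9.54%) and 6 of the 94 that reached 5 (6.38%) stood in runs. Of those 94, 73 (77.7%) abutted no other peak, beside 63.4% of the whole list. Among the 601 peaks of 100 nt or more, 37 (6.16%) stood in runs.

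Runs lay in stretches crowded with peaks. Peaks on the same strand with starts within 10 kb of the previous peak's end were taken as 1 locus. Of 6570 loci, 677 held a run, 205 held 2 or more and 27 held 5 or more. The 53 peaks in runs with a −log10 p of 400 came from 19 loci, and the 302 with at least 50 came from 86 loci. A run was present in 108 of the 1076 loci of 3 to 4 peaks. The share of loci with a run was 18.7% at 5 to 9, 42.2% at 10 to 24, 75.3% at 25 to 49 and 96.9% at 50 or more, where 31 of 32 had one. The share of peaks that stood in runs went from 9.46% to 10.3%, 14.3%, 17.3% and 21.7% over the 5 classes. Only 73 runs were the whole of their locus. The nearest other peak lay a median of 377 nt away, with quartiles of 83 and 1700.5 nt, and 193 runs (18.1%) had another peak within 50 nt. Among the 782 runs in loci of 10 or more peaks, the median place in the 5′ to 3′ order of the locus was 0.42, where 0 is the 5′ end and 1 the 3′ end.

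The higher −log10 p and smaller width of peaks in runs were also seen beside other peaks of the same locus. In 579 loci that held both, the median −log10 p of peaks in runs was above that of peaks that abutted no other in 448 loci (77.4%), with a median difference of 3.35. Peaks in runs were wider in 177 of these loci (30.6%), and the median difference in width was -7 nt. Their median log2 fold change was the higher in 388 loci (67.0%), by a median of 0.16.

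Along a run, −log10 p was most often highest inside, and fold change was more often highest at an end. Counting the peaks that were neither the first nor the last, 40.8% of peaks in runs were inside. The highest −log10 p lay inside in 594 of 1067 runs (55.7%), at the 5′ end in 240, at the 3′ end in 216 and was tied in 17. The highest log2 fold change lay inside in 336 runs (31.5%), at the 5′ end in 326, at the 3′ end in 399 and was tied in 6. Thus the share inside lay above the share of inside peaks for −log10 p and below it for fold change. Fold change was not higher at the ends on average, however. The mean log2 fold change of inside peaks was above that of end peaks in 580 runs (54.4%) and below it in 487. The median difference, inside minus ends, was 0.019. The widest peak lay inside in 454 runs (42.5%). In runs without any peak under 10 nt, which numbered 546, the inside share of the highest −log10 p was 46.0% and that of the widest peak was 34.2%, beside 38.9% of peaks inside. The median −log10 p was 22.0 inside, 16.8 at the 5′ end and 16.7 at the 3′ end, and the median log2 fold changes were 2.84, 2.76 and 2.83.

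In the 774 runs of 3, the median log2 fold change from 5′ to 3′ was 2.76, 2.82 and 2.81. The median −log10 p was 15.7, 19.0 and 15.6, and the median width 22, 28 and 22 nt. The middle peak had the highest −log10 p in 399 runs of 3 (51.6%) and the lowest in 73 (9.43%). Fold change had no such leading form. It rose from 5′ to 3′ in 231 runs of 3, fell in 201, was highest in the middle in 209 and lowest there in 126, with neighbours tied in 7. The most frequent joint form was a middle peak highest in both measures, in 136 runs. Next came a fold change that rose from 5′ to 3′ while −log10 p was highest in the middle, in 128 runs, and one that fell from 5′ to 3′ with −log10 p highest in the middle, in 100.

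**Figure D2:**
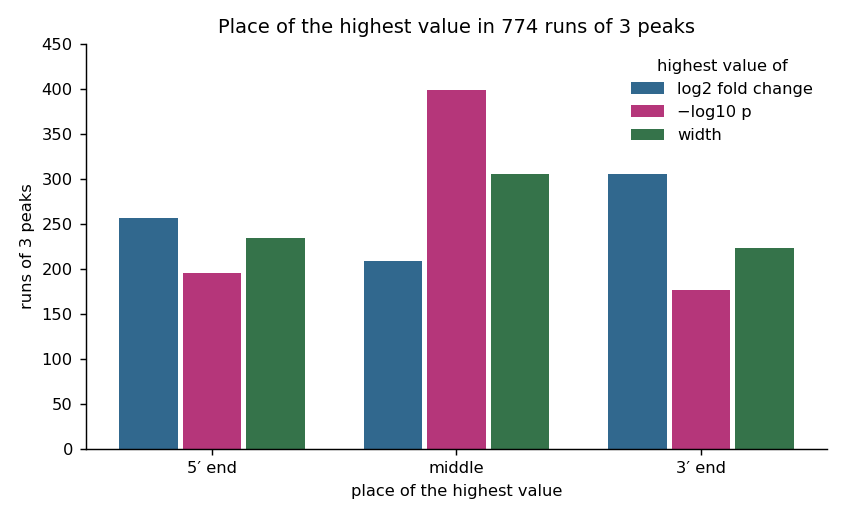
Number of runs of 3 peaks (vertical axis, of 774) whose highest log2 fold change, −log10 p or width lay at the 5′ end, in the middle or at the 3′ end, leaving out tied runs. The middle holds the highest −log10 p in 399 runs and the highest fold change in 209.

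The runs of 4 had median log2 fold changes of 2.80, 2.85, 2.88 and 2.85 from 5′ to 3′, and median −log10 p of 19.7, 23.3, 23.0 and 19.2. In the 60 runs of 5, fold change was higher toward the 3′ side, and the median −log10 p was highest at the fourth peak. The median −log10 p was alike at both ends, but run by run the 3′ end was the higher in 39 and the 5′ end in 20. For fold change these counts were 41 and 18. The median log2 fold changes of the runs of 5 were 2.63, 2.83, 2.93, 3.11 and 3.07. Their median −log10 p was 24.3, 27.8, 28.7, 34.2 and 24.4, and their median widths were 15, 19.5, 23, 26.5 and 18.5 nt. From 5′ to 3′, 24, 22, 29, 34 and 35 of the 60 peaks at each position reached 8-fold. The share was 40.0% at the first peak and 58.3% at the fifth, beside 32.3% of the whole list. In runs of 6 or more, 32.8% of peaks reached 8-fold. Quartiles of neighbouring positions overlapped for every measure in runs of 3, 4 and 5.

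**Figure D3:**
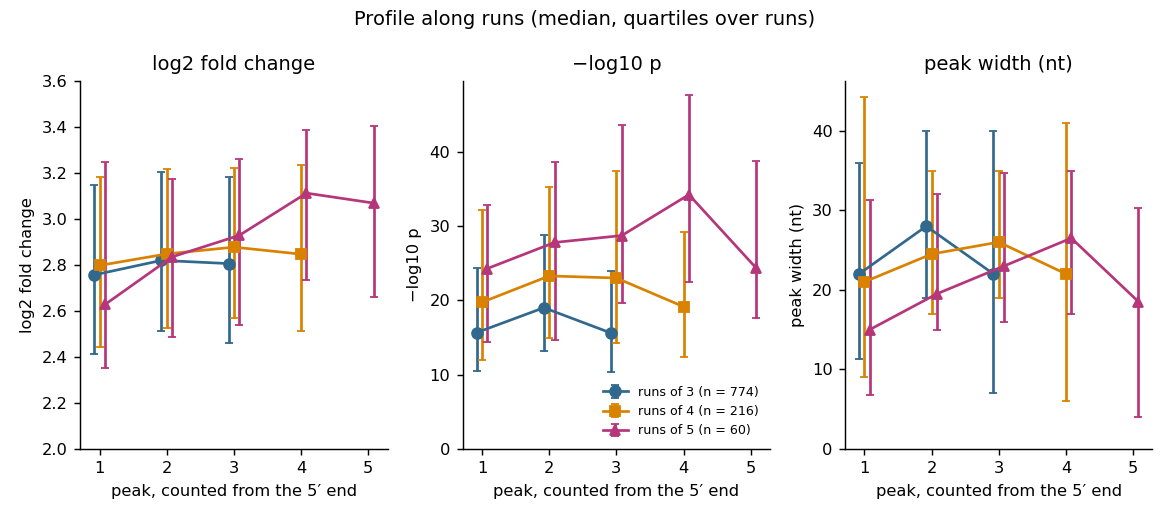
Median log2 fold change, −log10 p and width in nt (points, with quartiles over runs as bars) at each peak counted from the 5′ end, for runs of 3, 4 and 5 peaks. The −log10 p medians are lower at both ends than inside, and in runs of 5 the fold change medians go from 2.63 at the 5′ end to 3.11 at the fourth peak.

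The ends of a run differed little over all runs. The 3′ end had the higher log2 fold change in 574 runs (53.8%) and the 5′ end in 491 (46.0%), with a median difference, 5′ minus 3′, of -0.044. The corresponding counts for −log10 p were 520 and 542. In pairs, the 3′ peak had the higher fold change in 1993 of 3824 (52.1%), and the 5′ peak had the higher −log10 p in 2141 (56.0%). The 77 runs of 5 or more, a group looked at after the values were seen, had the higher fold change at the 3′ end in 52 and at the 5′ end in 24. In these 77 runs −log10 p also was more often higher at the 3′ end, in 48, than at the 5′ end, in 28. Runs of 4 were even in fold change, with 108 each way.

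Within runs, very narrow peaks sat at the ends, and more of them at the 3′ end. Peaks of 5 nt or less, a limit chosen after widths had been seen, made up 22.8% of 3′ end peaks (243 of 1067), 10.5% of 5′ end peaks (112) and 1.09% of inside peaks (16 of 1471). They were 5.36% of the peaks that abutted no other and 7.04% of the whole list. Of the 2167 such peaks in the list, 371 (17.1%) stood in runs and 1045 (48.2%) abutted no other. A narrow peak stood at the 3′ end alone in 227 runs, at the 5′ end alone in 96, at both ends in 16 and at neither in 728. The order held on each strand, with 18.8% at the 3′ end and 10.7% at the 5′ end on plus, and 27.6% and 10.3% on minus. In pairs the shares were smaller, 13.2% at the 3′ end and 6.41% at the 5′ end.

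Narrow end peaks nearly always had a lower −log10 p than the peak they abutted. The end peak was the higher in −log10 p in 11 of 243 runs with a narrow 3′ end and in 3 of 112 with a narrow 5′ end, whereas a wider end peak was the higher in 32.5% and 33.6%. Fold change did not share this. The narrow 3′ end peak had the higher fold change in 117 of 243 runs, with a median difference from its neighbour of 0.

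**Figure D4:**
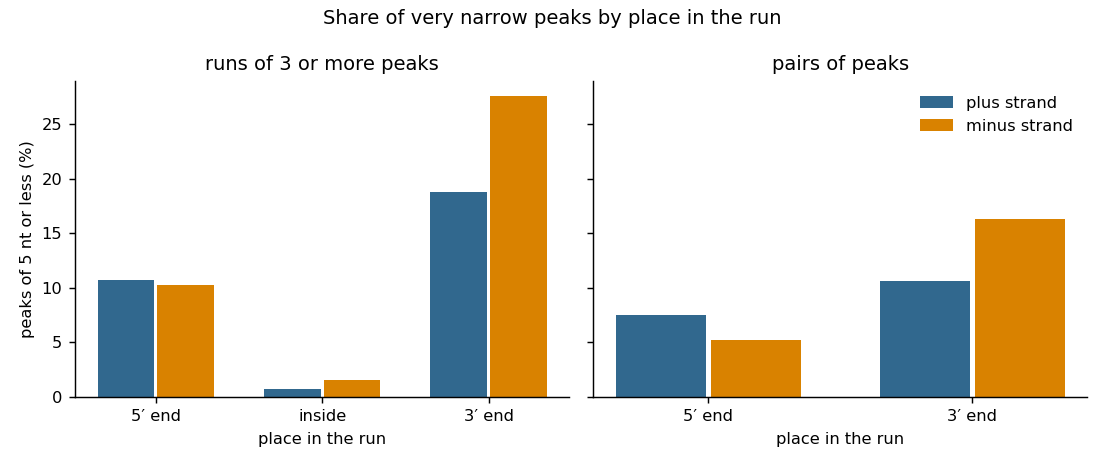
Share of peaks of 5 nt or less (vertical axis, percent) at the 5′ end, inside and at the 3′ end of runs and at both ends of pairs, by strand. On each strand the 3′ end bar is the tallest, at 18.8% on plus and 27.6% on minus in runs.

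Abutting peaks resembled each other more in fold change than peaks that were merely close. The median absolute difference in log2 fold change was 0.20 over the 2538 steps within runs, a 1.15-fold ratio. It was 0.21 within pairs, 0.34 between neighbours apart by 1 to 50 nt (2309), 0.36 at 51 to 1000 nt (7488) and 0.38 beyond 1000 and up to 10000 nt (8034). Pearson's r between neighbours was 0.76 within runs, 0.73 within pairs, 0.44, 0.41 and 0.35 over these classes, as a description over peaks that share their libraries and often their locus. Within runs, 35 steps (1.38%) exceeded 1 on the log2 scale. Fold change and −log10 p moved the same way at 1601 steps (63.1%) and opposite ways at 904, and width and −log10 p moved the same way at 1929 (76.0%). Width and fold change showed no shared direction, with 1258 steps the same way and 1225 opposite. Within a run the highest and lowest log2 fold change differed by a median of 0.45. Of all runs, 464 had no peak at 8-fold, 197 had every peak there and 406 had some.

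The run with the most peaks had 12 and lay at chr13:6621154-6621349 (minus strand), over 196 nt in a locus of 50 peaks. All 12 peaks were past 8-fold, and their log2 fold changes stayed within 3.23 and 3.76. From 5′ to 3′ they were 3.23, 3.62, 3.50, 3.47, 3.35, 3.65, 3.68, 3.33, 3.29, 3.76, 3.48 and 3.52. The −log10 p began at 37.7 and stood at the shared highest value of 400 at each of the next 5 peaks. It then measured 40.4, 65.2, 74.0, 50.2, 33.9 and 27.4. The 5 peaks at 400 were 4, 8, 3, 20 and 29 nt wide and adjoined each other, and a peak of 19 nt with a higher fold change followed them at 40.4. The 3′ end peak, of 2 nt, had the lowest −log10 p of the run. The same locus held 8 runs with 39 of its 50 peaks (78.0%), the highest share among the 10 loci with the most runs.

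The 3 runs of 8 peaks differed in form. At chr2:130101396-130101559 (plus strand), the log2 fold change fell from 2.91 at the 5′ end to 2.02 at the third peak and then rose at every step to 2.62 at the 3′ end. Its first 2 peaks had a −log10 p of 400 and the third 28.6. At chr15:79371464-79371597 (minus strand), the fold change was highest at the 5′ side, at 3.62 and 3.71, and 2.87 at the 3′ end. The −log10 p there lay the other way, with 38.5 and 48.1 at the first 2 peaks and 86.5 at the sixth. At chr14:55512996-55513330 (plus strand), the run covered 335 nt, and its fold changes lay between 2.22 and 2.63 with a −log10 p of 400 at the second peak alone. It is also among the 5 widest runs.

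**Figure D5:**
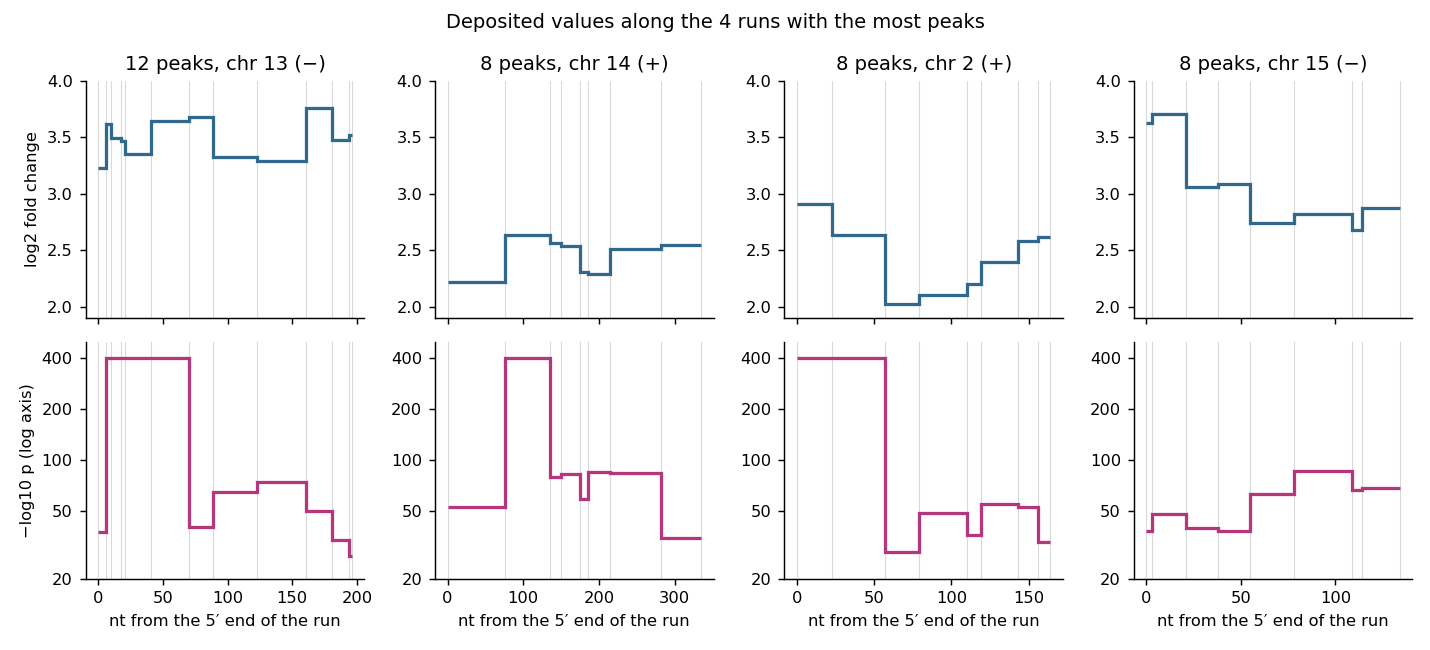
Log2 fold change (upper panels) and −log10 p on a log axis (lower panels) against distance in nt from the 5′ end of the run, for the run of 12 peaks and the 3 runs of 8; each step is a peak and grey lines mark peak edges. In the chromosome 13 run 5 adjoining peaks stand at 400, the shared highest value of the list, and the size of a step to or from it is unknown. In the chromosome 15 run the fold change is highest near the 5′ end while −log10 p is highest at the sixth peak.

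The other runs among the 10 with the most peaks were 5 runs of 7 and the widest run of 6. At chromosome 1, the log2 fold changes of the plus-strand run from 136302887 to 136303039 lay between 2.01 and 2.37, with the lowest at the sixth peak. At chr13:73922493-73922614 (plus strand), the fold change was highest at the 5′ end (3.14), lowest at the fourth peak (2.15) and 2.79 at the 3′ end. A similar dip was seen at chr6:33246732-33246917 (plus strand), with 3.003 at the 5′ end, 2.09 at the fourth peak and 2.66 at the 3′ end. There the fifth peak, of 90 nt, had the highest −log10 p of the run, 42.2, with a log2 fold change of 2.16. At chr3:151883649-151883750 (plus strand), the fold change was 2.80, 2.72, 2.51, 2.51, 2.74, 3.14 and 3.26, so that the highest lay at the 3′ end in a peak of 3 nt. At chr6:49195475-49195607 (minus strand), it was 2.68 at the 5′ end and 3.16 at the 3′ end, a peak of 2 nt. The run of 6, at chr1:136457147-136457467 (plus strand), rose at every step from 2.19 to 2.85. Of these 10 runs, 3 had their highest fold change at the 3′ end, 3 at the 5′ end and 4 inside. Most peaks of such runs are inside: over all 17 runs of 6 or more peaks the share was 71.4%, and 6 of the 17 had their highest fold change there.

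The 5 runs with the highest single fold change held few peaks, 3 or 4 each. The highest was at chr4:144728573-144728649 (minus strand), in a locus of 118 peaks. Its 3 peaks, of 27, 29 and 21 nt, measured 12.1-fold, 21.9-fold and 62.5-fold from 5′ to 3′, while their −log10 p was 19.1, 15.7 and 15.7. Next came chr6:33568697-33568929 (plus strand), with 19.2-fold, 32.9-fold, 46.8-fold and 32.5-fold, and −log10 p of 15.7, 33.3, 48.5 and 15.7. The remaining 3 were at chr19:42029628-42029686 (minus strand), at 34.6-fold, 8.98-fold and 5.41-fold, chr6:108164209-108164272 (plus strand), at 22.2-fold, 33.0-fold and 28.5-fold, and chr11:88579020-88579059 (minus strand), at 31.2-fold, 14.6-fold, 10.3-fold and 9.55-fold. The chromosome 19 and chromosome 11 runs thus fell at every step from the 5′ end, the chromosome 4 run rose at every step, and both chromosome 6 runs were highest inside. Several of these peaks carry a −log10 p of 15.7, a value shared by 156 peaks in the list, 17 of them in runs, and their p-values therefore do not rank them.

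The 5 runs with the highest median −log10 p all had a median of 400. This value is shared by 89 peaks in the list and therefore does not rank these runs among themselves. Tied medians were ordered by the higher median log2 fold change. In a locus of 23 peaks, the run at chr2:130100768-130100882 (plus strand) had 400 at each of its 4 peaks and log2 fold changes of 3.25, 2.71, 2.75 and 2.86. In the same locus, 308 nt to the 5′ side, the run at chr2:130100370-130100459 had 48.5 at a first peak of 3 nt and 400 at the other 4, with fold changes between 3.12 and 3.25. The run of 8 described above belongs to this locus too. At chr13:6647817-6647963 (minus strand), the fold change rose at each step, from 3.19 to 3.28, 3.36, 3.67 and 4.06, and −log10 p went from 53.3 and 68.9 to 400 at the last 3 peaks. This run was the whole of its locus under the 10 kb limit, and the next peak lay 12572 nt to the 3′ side. The others were the minus-strand run at chromosome 1 from 155303175 to 155303472, with 400, 86.0 and 400 at fold changes of 3.80, 3.73 and 3.25, and the plus-strand run at chromosome 7 from 135124925 to 135125070, with 16.8, 400 and 400 at 2.18, 2.67 and 2.69.

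In 4 of the 5 widest runs the median log2 fold change lay below the 2.72 of the whole list, and in 1 it was 2.75. The widest, 401 nt at chr8:63461642-63462042 (minus strand), had 4 peaks of 182, 123, 42 and 54 nt and log2 fold changes of 2.30, 2.17, 2.08 and 2.12, the first being the highest in −log10 p as well, at 28.6. The run of 400 nt at chr4:56959719-56960118 (minus strand) had peaks of 168, 135 and 97 nt, with 2.80, 2.48 and 2.75, and is the one with the higher median. At chr8:129895396-129895778 (plus strand), 5 peaks lay between 2.04 and 2.46 and their −log10 p between 9.41 and 12.01. The run at chr14:105576079-105576451 (minus strand) had fold changes between 2.17 and 2.57. With the chromosome 14 run of 8 peaks, none of the 5 widest runs held a peak at 8-fold. Among all 1067 runs, 464 (43.5%) held none.

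The loci with the most runs differed in how much of them the runs took up. The locus at chrX:148269778-148367101 (plus strand) held 11 runs, but with 33 of 152 peaks these made up 21.7% of its peaks. The locus at chr5:116009553-116072041 (plus strand) held 9 runs with 34 of 124 peaks (27.4%). The locus at chr15:79369013-79376980 (minus strand), which holds a run of 8 described above, had 7 runs with 31 of 44 peaks (70.5%). By chromosome, leaving out Y with its 1 run, the share of peaks in runs was lowest at chromosome 10 (6.83%, 29 runs) and highest at chromosome 1 (16.4%, 105 runs). By strand it was 12.1% (plus) and 11.3% (minus).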

How the data were processed

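The 4 libraries (2 input, 2 pulled down with an antibody to eIF4A3) were sequenced as paired reads of 50 nt, per the labels' protocols. Per the submitters' processing notes, STAR 2.6.1b and cutadapt 1.18 were used with the mm9 genome; their roles are not stated. No label or header says which peak caller and test were used, what the fold change divides, or whether replicates were pooled. The log2 fold change and the −log10 p of each peak are the authors' deposited values, per the file headers. Read depth is unknown, and no counting interval was made.

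Both listed ends were counted as part of a peak. Runs were joined as described and ordered from 5′ to 3′ by strand, with pandas 2.3.3 and numpy 2.4.6 under Python 3.11.15, and plotted with matplotlib 3.10.9. The code was tested on simulated lists. No test was run, because the members were chosen from the same contrast. The runs described singly are the 10 with the most peaks, the 5 with the highest fold change, the 5 with the highest median −log10 p and the 5 widest. The members, lists and rules were chosen with earlier results of these data known. The gene models and promoter sequences at hand are on another build and were not used, positions were not converted, and no sequence is printed.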

Additional observations from a re-analysis of the deposited data

How the results depend on the processing

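No paired analysis was possible because the list gives no values per library, and no replicate was left out for the same reason. Leaving out the 5 loci with the most runs, and taking runs of exactly 3 peaks, were settings added after the data were seen. From 1067 runs with 3605 peaks, a minimum of 4 peaks left 293 runs with 1283 peaks, a minimum of 2 gave 4891 with 11253, joining only peaks at 8-fold gave 241 with 793, runs with every peak at least 10 nt wide were 546 with 1787, and runs of exactly 3 held 2322 peaks. These follow from the settings' construction. The share of peaks at 8-fold, 37.5%, was 40.1% with a minimum of 4, 34.6% with a minimum of 2 and 33.97% without peaks under 10 nt. The highest fold change lay inside in 31.5% of runs, and in 43.3% with a minimum of 4, 36.5% from peaks at 8-fold and 27.0% in runs of 3, below the share of inside peaks in all 10 settings. The highest −log10 p lay inside in 55.7%, and in 66.6%, 46.0% and 51.6% with a minimum of 4, without peaks under 10 nt and in runs of 3. The widest peak did so in 42.5%, and in 50.9%, 34.2% and 39.4% there. Inside peaks made up 40.8% of peaks in the main setting, and 54.3%, 38.9% and 33.3% in these settings. The share for the widest peak thus lay above that of inside peaks in the main setting and in runs of 3. It lay below with a minimum of 4 and without peaks under 10 nt. The median of inside minus end log2 fold change, 0.019, was 0.044 from peaks at 8-fold. The share of runs whose 5′ end had the higher −log10 p, 50.8%, was 54.9% with a minimum of 2 and turned below 50% with gaps of up to 5 nt joined (49.8%), a minimum of 4 (48.5%), 1 run per locus (49.3%) and no peak under 10 nt (43.8%). The cause was not tested. The share with the higher fold change at the 5′ end stayed below 50% in all 11 settings.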

Other observations

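The running numbers in the peak names followed the p-values. Within each of 42 groups of chromosome and strand, −log10 p fell at 22687 of 30721 steps from one listed number to the next, stayed equal at 8034 and rose at 0. Between the lowest and highest listed number of each group, 8055 numbers do not appear in the list. At steps within runs, the peak with the higher −log10 p had the lower number at 2506 of 2538, and the remaining 32 were ties.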
